A study of Mus musculus with 6 samples.

Results

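The somatostatin system of cultured mouse cerebellar granule neurons (CGNs) was described through 6 genes of the 55341 listed, the receptors Sstr1, Sstr2, Sstr3 and Sstr4 and the peptide genes Sst and Cort. The genes were chosen by family, with their values under GSK-126 against DMSO in these same libraries already known, so that contrast is given for them as a description without a test. CGNs came from cerebella of CD1-IGS mouse pups at P6 to P8 (postnatal days), isolated on a Percoll gradient and pooled over litters, and all cultures received AraC, which stops dividing cells. The cultures were then given either the vehicle DMSO (3 libraries) or GSK-126, an inhibitor of the H3K27 methyltransferase EZH2 (3 libraries), at DIV3, where DIV counts days in vitro, and polyA RNA was collected 2 days later according to the methods. The sample labels name the tissue as cerebellum and the day as DIV3, give no age of the animals for these libraries and no dose, and number the libraries of each group 1 to 3. The comparison asks which transcripts differ when EZH2 is inhibited while the neurons mature in culture.

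Somatostatin and cortistatin are short cyclic peptides cut from larger precursors, and both bind the same family of receptors. The receptors couple to Gi/o proteins: the alpha subunit lowers adenylyl cyclase activity, and the beta-gamma subunits open GIRK potassium channels and close presynaptic calcium channels, so that a neuron carrying them is made less excitable. SSTR2 is a broadly distributed receptor of the brain, SSTR3 is known for its place in the membrane of primary cilia, and in the rodent cerebellum somatostatin binding sites are known from immature granule cells.

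In GRCm38, Sstr2 (ENSMUSG00000047904.6) lies on chromosome 11 from 113619342 to 113626028 on the plus strand and Sstr3 (ENSMUSG00000044933.3) on chromosome 15 from 78537008 to 78544685 on the minus strand. Sstr1 (ENSMUSG00000035431.4) lies on chromosome 12 from 58211772 to 58214444 and Sstr4 (ENSMUSG00000037014.4), a gene of 1 exon, on chromosome 2 from 148395344 to 148396767, both on the plus strand. The ligand genes Sst (ENSMUSG00000004366.4; chromosome 16, 23889573 to 23890958) and Cort (ENSMUSG00000028971.4; chromosome 4, 149125034 to 149126763) both lie on the minus strand. The exons of 0 of the 6 genes overlap those of another annotated gene on either strand, so their counts hold no reads from the exons of such a gene. Whether the counting used strand is not given in the sources used here, and the number of reads counted may depend on it.

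The promoters of both receptors with usable counts and of the somatostatin gene are shown because the Sst promoter is the textbook site for the cAMP response element (CRE), the element through which cAMP, the messenger that these receptors lower, acts on transcription. Capitals mark a full CRE, TGACGTCA, or, where no full one lies in the window, its 5-base core CGTCA on either strand. The sequences run 5′ to 3′ on the strand of the gene, from 250 bases before to 50 bases after a start site, and come from RefSeq (GRCm38.p6), which matched 5 of the 6 genes. The Sstr2 window is chr11:113619077-113619376 on the plus strand, the Sstr3 window is chr15:78544296-78544595 on the minus strand, and the Sst window is chr16:23890795-23891094 on the minus strand.
Sstr2: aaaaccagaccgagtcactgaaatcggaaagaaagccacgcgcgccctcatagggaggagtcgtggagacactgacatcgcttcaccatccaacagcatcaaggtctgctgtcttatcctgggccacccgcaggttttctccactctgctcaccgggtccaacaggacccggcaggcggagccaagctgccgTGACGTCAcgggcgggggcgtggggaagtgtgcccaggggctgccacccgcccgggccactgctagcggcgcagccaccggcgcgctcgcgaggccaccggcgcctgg
Sstr3: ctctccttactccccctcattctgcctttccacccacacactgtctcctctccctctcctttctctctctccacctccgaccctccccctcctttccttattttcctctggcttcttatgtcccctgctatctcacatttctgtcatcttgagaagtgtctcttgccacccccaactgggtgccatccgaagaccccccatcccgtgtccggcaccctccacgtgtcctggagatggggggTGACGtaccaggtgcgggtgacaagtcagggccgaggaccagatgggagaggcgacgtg
Sst: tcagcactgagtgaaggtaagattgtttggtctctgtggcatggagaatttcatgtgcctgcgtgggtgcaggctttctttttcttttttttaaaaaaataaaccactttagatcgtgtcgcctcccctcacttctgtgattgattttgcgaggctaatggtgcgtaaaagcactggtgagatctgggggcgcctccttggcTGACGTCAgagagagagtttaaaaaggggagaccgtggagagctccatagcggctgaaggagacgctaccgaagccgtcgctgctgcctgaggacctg

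A full CRE was found in the windows of Sstr2, from 58 to 51 bases before the start, and of Sst, from 48 to 41 bases before it. The same 8 letters were found in 588 of 32851 RefSeq promoters of this length (1.79%). The core, searched on both strands and contained on each strand of a full element, was found in 6837 promoters (20.81%), those with a full element included. It was present 9 to 5 bases before the start of Sstr3 and 18 to 14 bases before that of Cort, but not in the Sstr4 window. The TATA box letters TATAAA, held by 13.62% of promoters, were in none of the members' windows. The Sstr2 window was also rich in CpG, with 27 CpG pairs and 66.3% GC against a median of 7 pairs and 52.7% over all promoters, and the Sstr4 window held 35. The Sstr3 window held 10 CpG pairs, and its other listed start, at 78541357 to 78541656, held 1. These letter matches describe the windows and say nothing of whether a factor bound there.

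Between 7407189 and 13092763 reads per library fell on genes, and levels are given below in CPM, the counts scaled to a common library size with edgeR's TMM factors, with 3 counts, the most that a count of 0 allows, worth 0.229 to 0.405 CPM. The replicate number marked a difference that both groups shared: the first principal component of log2 CPM held 46.4% of the variance and placed replicate 2 of DMSO (58.8) and replicate 2 of GSK-126 (32.8) apart from the other 4 libraries (-36.7 to -12.3). Replicate 2 of each group also had the highest level of granule neuron markers, 5080 and 3820 CPM summed over 9 genes, and the lowest level of astroglial markers. Over all libraries these sums ranged from 2480 to 5080 CPM for granule neuron genes, from 2050 to 7200 CPM for 6 astroglial genes and from 4410 to 6790 CPM for 5 fibroblast and vascular genes, most of the last being collagen transcripts. The granule neuron label thus covers cultures with abundant glial and fibroblast RNA. In such bulk RNA, fewer cells of a type and less RNA per cell cannot be told apart.

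Sstr2 had the most reads of the receptors in every library and was lower in each GSK-126 library than in any DMSO library. Its counts were 119, 189 and 166 in DMSO replicates 1 to 3 and 102, 89 and 53 in GSK-126 replicates 1 to 3, or 13.7, 17.6 and 14.4 CPM against 7.73, 9.59 and 7.08 CPM. The highest value of either group was in replicate 2, and a gap of several CPM separated the groups. The means were 15.3 ± 2.08 CPM in DMSO and 8.13 ± 1.30 CPM in GSK-126 (SD, n = 3 each). On the log2 scale the fitted difference was -0.91 (SE 0.21), or 1.87-fold lower. Taken pair by pair, the log2 ratio was -0.83, -0.88 and -1.03, so the 3 pairs differed among themselves by an SD of only 0.10.

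Sstr3, the ciliary receptor, was rarer and differed by more. Its counts were 23, 56 and 17 in DMSO and 4, 9 and 4 in GSK-126, or 2.65, 5.22 and 1.48 CPM against 0.303, 0.969 and 0.534 CPM. Again the groups did not overlap and replicate 2 was the highest of each, but the spread within a group was wide, with a coefficient of variation of 61.4% in DMSO against 13.6% for Sstr2. The means were 3.12 ± 1.91 CPM and 0.602 ± 0.338 CPM (SD, n = 3 each), and the fitted log2 difference was -2.39 (SE 0.64), or 5.23-fold lower. The pairs gave -3.13, -2.43 and -1.47, an SD of 0.83, and 2 of the 3 GSK-126 values rest on 4 counts each.

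**Figure D1:**
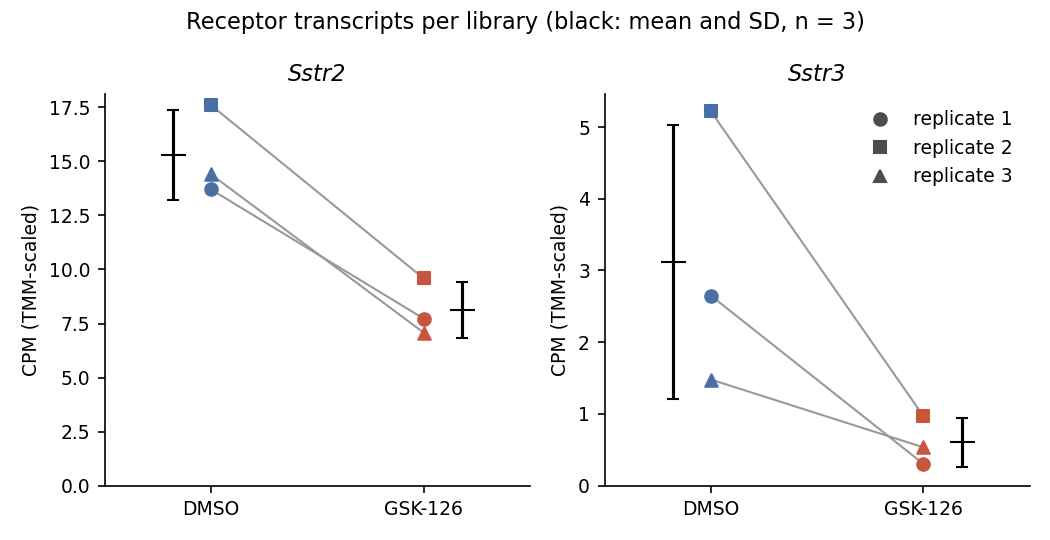
CPM of Sstr2 and Sstr3 in each DMSO and GSK-126 library, with lines joining libraries of the same replicate number and bars for the group mean and SD. Sstr2 ran from 13.7 to 17.6 CPM in DMSO and from 7.08 to 9.59 CPM in GSK-126, and Sstr3 from 1.48 to 5.22 CPM and from 0.303 to 0.969 CPM.

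Both values are set here against all genes, without reading anything from them, since the choice of the genes used this contrast. Of the 6 genes, 2 had enough counts to enter the fit, and Sstr3 entered only through its DMSO libraries, so that it had to differ. In the fit with group as its only term, 0 of them passed an adjusted p of 0.05, as did 0 of 16729 genes tested (0%). At an unadjusted p under 0.05, 369 genes were lower and 296 higher, among them both receptors. DESeq2 called 21 genes, Sstr2 not among them, and gave Sstr3 no adjusted p. With the replicate number as a block, both receptors were called lower by edgeR, where 5.09% of genes were called lower (851) and 3.35% higher (561). The block left the sizes where they were, at -0.91 (SE 0.18) for Sstr2 and -2.38 (SE 0.51) for Sstr3. Without the replicate 2 libraries, which stood apart, the blocked values were -0.92 (SE 0.21) and -2.35 (SE 0.71), and the call on Sstr3 was lost. Without DMSO replicate 2 alone and with no block, Sstr3 gave -1.78 (SE 0.65). GSK-126 lay below DMSO in every library for 4.72% of the genes tested (789), which is the background for the gap between groups seen in both receptors. In the blocked fit 178 tested genes (1.06%) had a lower log2 fold change than Sstr2 and 1 had a lower one than Sstr3.

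Because Sstr3 differed by more, the makeup of the receptor reads also differed. Sstr2 took 83.8% (95% Wilson interval 76.9 to 89.0), 77.1% (71.5 to 82.0) and 90.7% (85.6 to 94.1) of the reads of the pair in DMSO replicates 1 to 3. In GSK-126 it took 96.2% (90.7 to 98.5), 90.8% (83.5 to 95.1) and 93.0% (83.3 to 97.2). The lowest GSK-126 share, 90.8%, lay just above the highest DMSO share, 90.7%, and their intervals, which cover counting error only, overlap widely. This share follows from the same values that chose the genes and adds no separate evidence.

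The other receptors had no more than 5 counts in any library. Sstr4 had 2, 5 and 5 counts in DMSO and 3, 2 and 1 in GSK-126, and its groups, though apart in CPM, met within 1 count. Sstr1, which with Sstr4 makes up the other branch of the receptor family, had 1, 1 and 0 counts in DMSO and 0, 5 and 0 in GSK-126, all of the GSK-126 reads coming from replicate 2. The ratio of GSK-126 to DMSO over the summed counts was 0.529 for Sstr4 (exact 95% interval 0.163 to 1.52) and 2.65 for Sstr1 (0.433 to 27.8). Both intervals span equality and cover counting error only, so no difference in either direction was detectable at this depth. Sstr5, the remaining somatostatin receptor, was listed at 0 counts in 5 libraries and at 3 counts in GSK-126 replicate 1, and Ghsr, a ghrelin receptor that also binds cortistatin, had 1 count in each of 2 libraries.

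The ligand genes were as scarce. Sst had 2, 2 and 9 counts in DMSO and 6, 5 and 0 in GSK-126, and Cort had 2, 4 and 7 in DMSO and 7, 9 and 0 in GSK-126. Both peptides were at 0 in GSK-126 replicate 3, the library with the fewest reads, where a count of 0 allows up to 0.405 CPM. Both were present in every other library, and their groups overlapped. The ratio of GSK-126 to DMSO was 0.895 for Sst (exact 95% interval 0.363 to 2.17) and 1.30 for Cort (0.587 to 2.94), so a difference was not detectable for either peptide.

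Per kilobase of exon, which allows levels to be compared between genes, Sstr2 stood well above the other members in DMSO, at 7.12 ± 0.969 CPM per kilobase (SD, n = 3). That level was above that of 54.2% of the genes tested, whose median was 6.20 CPM per kilobase. Sstr3 followed at 0.722 ± 0.443 CPM per kilobase, 9.87 times lower and above only 8.40% of genes. Next came Cort at 0.597 ± 0.282, Sst at 0.554 ± 0.460, Sstr4 at 0.265 ± 0.0897 and Sstr1 at 0.0340 ± 0.0299 CPM per kilobase. Of the 5 steps in this order, 2 separated all libraries, the one from Sstr2 to Sstr3 and the one from Sstr4 to Sstr1. The steps from Sstr3 to Cort, from Cort to Sst and from Sst to Sstr4 did not exceed the spread of the libraries. The step from Sstr4 to Sstr1 sets 2, 5 and 5 counts against 1, 1 and 0, too few to rank the pair. In GSK-126, Sstr2 was still first at 3.79 ± 0.607 CPM per kilobase, and Sstr3, at 0.139 ± 0.0783, came after Cort (0.738 ± 0.717) and Sst (0.459 ± 0.402). Over all 6 libraries only the step below Sstr2 was clear.

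**Figure D2:**
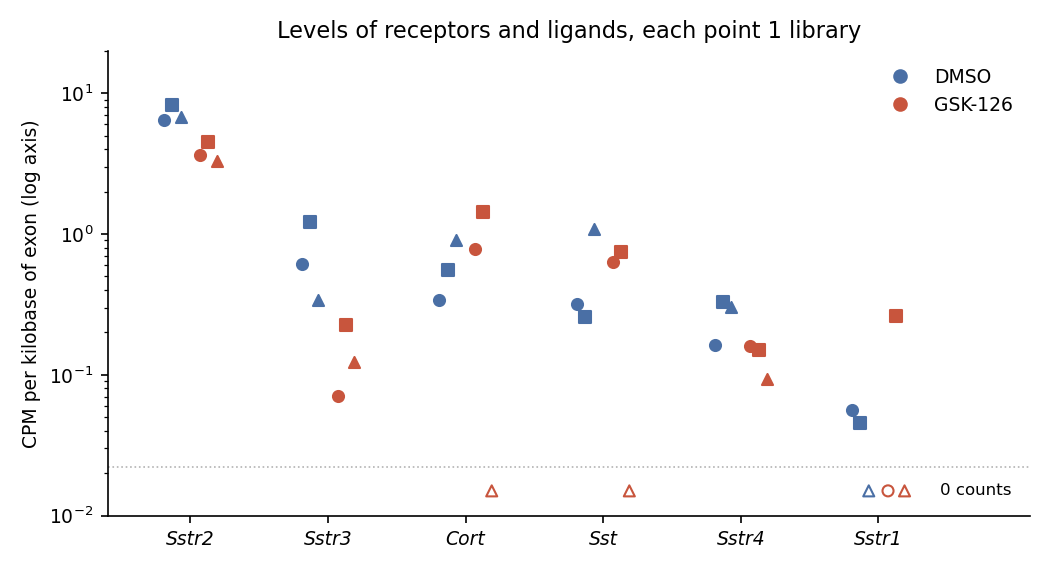
CPM per kilobase of exon for the 6 members on a log axis, 1 point per library, in the order of their DMSO means. Sstr2, at 3.30 to 8.22, lies above all points of the other 5 genes, whose points overlap.

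The genes whose levels followed Sstr2 most closely over the 6 libraries were Phf21a, a component of a histone demethylase complex (Pearson r = 0.9977), Gle1, which acts in mRNA export (0.9965), Ptpru, a receptor tyrosine phosphatase (0.9959), Lsamp, a cell adhesion molecule of neurons (0.9859), and Snrk, a kinase of the AMPK family (0.9855). Like Sstr2, these genes had every GSK-126 library below every DMSO library. A correlation over 0.95 was found for 67 of 16728 genes (0.400%), and the 6 points share their 2 groups and 3 replicate numbers, so the values describe likeness and carry no test. Sstr3 reached 0.93 against Sstr2. Over the same libraries the 9 granule neuron markers ranged from -0.52 for Barhl1 and 0.45 for Pax6 to 0.89 for Slc17a7 and Gabra6.
With the mean of each replicate number removed, the measure follows the size of the 3 pair differences only relative to each other, and 1157 of 15383 genes (7.52%) exceeded 0.95. The first 4 by that measure were Rasl10b, 4632415L05Rik, A830073O21Rik and Rbm48, at 0.9999 or more. Their groups overlapped in CPM, unlike those of Sstr2.

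**Figure D3:**
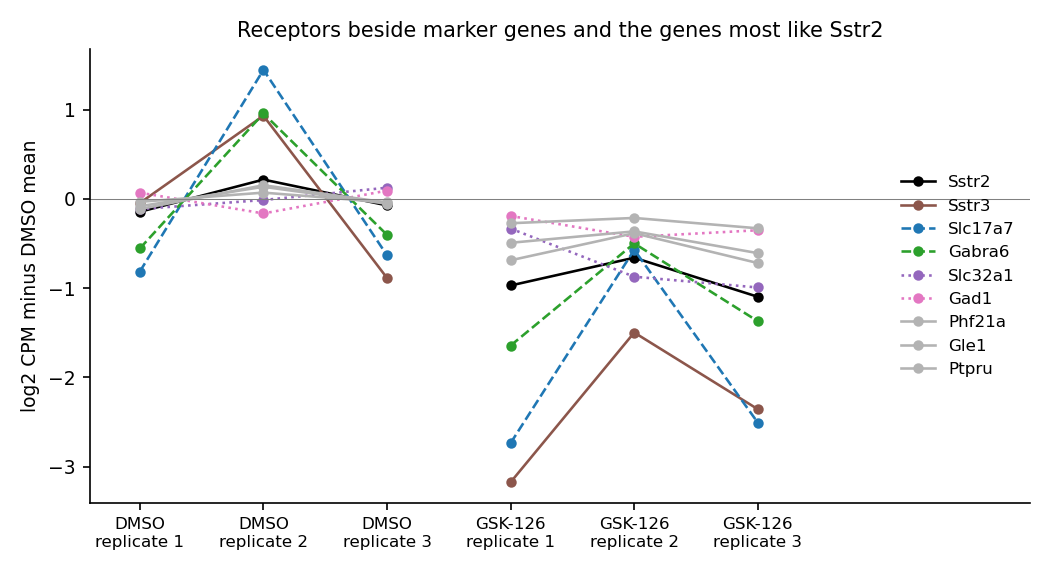
Level of Sstr2, Sstr3, the 3 genes most like Sstr2 (grey), 2 granule neuron markers (Slc17a7, Gabra6) and 2 GABAergic markers (Slc32a1, Gad1) in each library, as log2 CPM minus the mean log2 CPM of the 3 DMSO libraries; lines join the points of 1 gene and imply no order of the replicates. Slc17a7, Gabra6, Sstr3, Sstr2 and the grey genes are all highest in replicate 2 of both groups, and Sstr2 and the grey genes vary less between replicates of a group.

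Genes around the receptors were taken as the nearest 2 tested on each side, a rule added after values had been seen. For Sstr2 they were 2610035D17Rik (417.5 kb away), Sox9 (831.6 kb), Cog1 (23.1 kb) and Fam104a (35.3 kb), with blocked log2 fold changes of 0.09, -0.01, -0.16 and -0.11. For Sstr3 they were C1qtnf6 (5.6 kb), Kctd17 (97.7 kb), Rac2 (14.5 kb) and Cyth4 (52.4 kb), at 0.17, 0.08, 0.41 and 0.34. With the block, 0 of these 8 genes were called, where 5.09% of all genes tested were called lower and 3.35% higher. A log2 fold change as low as that of either receptor was found in 0 of them, where 1.06% of genes tested lay below Sstr2. At such shares 0 of 8 says nothing particular about these neighbours.

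The signalling partners of the receptors were then followed in lists of 67 genes, of which 57 were tested. In the fit with no block 0 were called by edgeR (3 had an unadjusted p under 0.05) and 0 by DESeq2. With the block, 1 was called higher and 10 lower, where 3.35% and 5.09% of all genes tested were, 46 were called in neither direction, and the median log2 fold change of the lists was -0.10 against -0.01 over all genes tested. Calls and adjusted p-values below come from the blocked edgeR fit, adjusted by Benjamini-Hochberg over all 16729 genes.

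Of the Gi/o subunits, through which all the receptors signal, 0 of 13 were called. The most abundant were Gnb1, a beta subunit (590 and 548 CPM in DMSO and GSK-126; adjusted p = 0.413), and Gnao1, the main alpha subunit of neurons (478 and 411 CPM; adjusted p = 0.0825). The median log2 fold change of the subunits was -0.10. Of the downstream effectors 4 of 14 were called lower and 0 higher, with a median of -0.15, which was -0.09 without pair 1 and, in the fit with no block, -0.27 without DMSO replicate 1 or GSK-126 replicate 2 and -0.05 without DMSO replicate 2. Adcy1, the calmodulin-stimulated adenylyl cyclase, was at 901, 2230 and 1180 CPM in DMSO and 586, 1270 and 777 CPM in GSK-126. The value of replicate 2 was the highest of both groups, so that the groups overlapped, yet each pair fell, for a log2 fold change of -0.68 (SE 0.07; adjusted p = 2.6e-06). Kcnj9, a GIRK channel subunit, was at 19.5, 37.9 and 21.0 CPM in DMSO and 8.11, 22.4 and 10.4 CPM in GSK-126 and also fell in each pair, with a log2 fold change of -0.99 (SE 0.15; adjusted p = 2.2e-04). Its partner subunit Kcnj3 fell from 140 ± 65.3 to 98.8 ± 43.2 CPM (log2 fold change -0.50, SE 0.08; adjusted p = 3.5e-04), although 31.1% of its exon bases lie opposite another gene. Cacna1a, the pore of P/Q-type calcium channels, fell from 472 ± 157 to 335 ± 93.7 CPM (log2 fold change -0.48, SE 0.07; adjusted p = 1.6e-04).

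Among genes of receptor desensitization, RGS proteins and scaffolds, 3 of 16 were called lower and 0 higher, with a median of -0.14, which in the fit with no block was -0.04 without GSK-126 replicate 1 and -0.07 without DMSO replicate 2. They were Grk2, a kinase that acts on occupied receptors (235 ± 39.5 to 192 ± 35.1 CPM; adjusted p = 0.011), and the postsynaptic scaffolds Dlg4 (232 ± 41.5 to 173 ± 36.8 CPM; adjusted p = 7.9e-04) and Shank1 (82.6 to 66.6 CPM; adjusted p = 0.0281, but 0.0988 by DESeq2 with the block). The scaffolds serve many synaptic receptors besides these. Of the genes that cut peptides from precursors or break them down, 1 of 9 was called, and the median was -0.02. That gene was Pcsk2, which cuts prosomatostatin among other precursors, at 73.6, 110 and 69.4 CPM in DMSO and 39.7, 69.0 and 45.0 CPM in GSK-126. Its groups did not overlap, and its log2 fold change was -0.73 (SE 0.09; adjusted p = 3.3e-05). Cpe, the carboxypeptidase of the next step, was at 705 and 605 CPM (adjusted p = 0.0509, but 0.0201 by DESeq2 with the block), and Scg5, the chaperone of Pcsk2, at 201 and 174 CPM (adjusted p = 0.0764).

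Of 11 other Gi/o-coupled neuropeptide receptors 5 were tested, 1 being called higher and 2 lower. Their median of -0.29 was -0.07 without pair 1, and in the fit with no block it turned to 0.24 without DMSO replicate 1. Galr1, a galanin receptor, rose from 9.40 ± 2.04 to 16.1 ± 0.708 CPM (log2 fold change 0.79, SE 0.18; adjusted p = 0.00954). Oprm1, the mu opioid receptor, fell from 2.52 ± 0.837 to 0.863 ± 0.562 CPM (log2 fold change -1.65, SE 0.49; adjusted p = 0.0413). Its value in GSK-126 replicate 1 was 0.227 CPM, about the worth of 3 counts there, and DESeq2 with the block gave it no adjusted p. Oprl1, the nociceptin receptor, fell from 61.6 to 49.2 CPM (adjusted p = 0.041, but 0.153 by DESeq2 with the block), and Npy1r, a receptor of neuropeptide Y, was at 20.8 and 16.2 CPM (adjusted p = 0.302). Not all inhibitory peptide receptors were lower under GSK-126, as Galr1 shows. Without the replicate 2 libraries the lists held 0 higher and 8 lower calls, so the call on Galr1 rested on that pair.

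**Figure D4:**
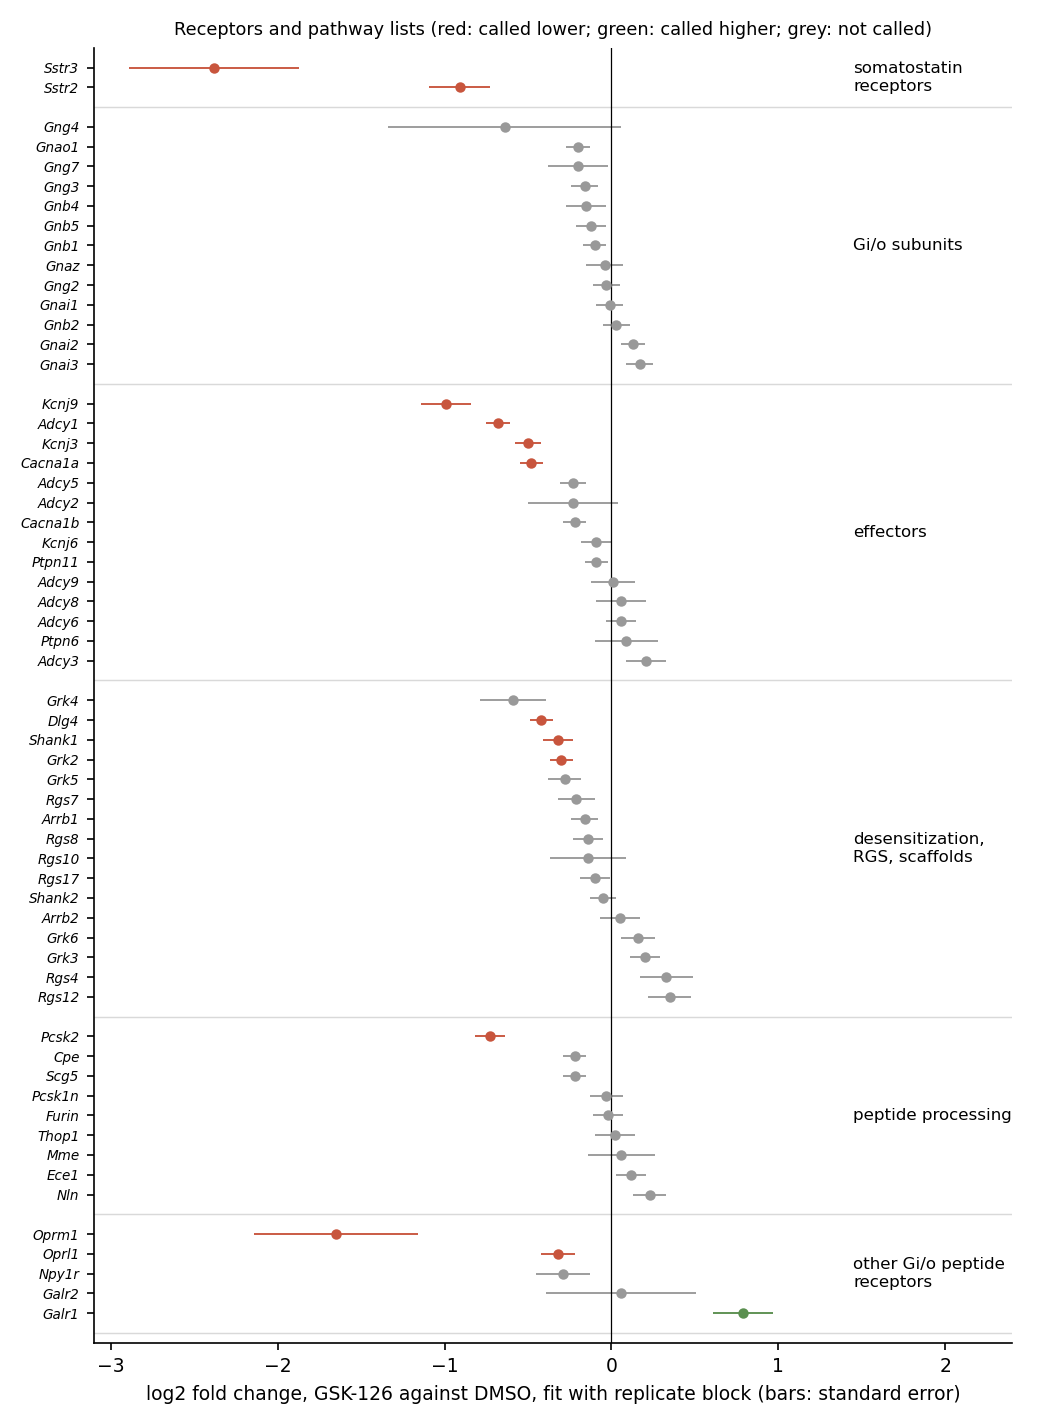
Log2 fold change of GSK-126 against DMSO in the fit with the replicate block, with standard errors, for the 2 receptors tested and the 57 tested genes of the pathway lists, 1 row per gene. Called genes are red where lower (10 of the lists) and green where higher (Galr1); most list genes lie near 0, and Sstr3 lies farthest from it.

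Markers of some cell types were lower under GSK-126, as the receptors were, and those of others were not. Of 9 granule neuron markers, 6 were called lower and 1, Barhl1, higher in the blocked fit, against 5.09% and 3.35% of all genes, those called lower including Slc17a7, the vesicular glutamate transporter (57.6, 276 and 65.3 CPM in DMSO and 15.2, 68.2 and 17.8 CPM in GSK-126; adjusted p = 1.3e-10), and Gabra6, a GABA receptor subunit of mature granule neurons (75.7, 216 and 84.1 CPM against 35.6, 78.7 and 43.0 CPM; adjusted p = 1.5e-07). Like Sstr2 and Sstr3, both were highest in replicate 2 of each group. The summed level of the 9 markers was 3130 to 5080 CPM in DMSO and 2480 to 3820 CPM in GSK-126. Of the 11 markers of GABAergic interneurons and Purkinje cells, which include the cells that make Sst, 10 were tested and 3 called lower (Gad1, Gad2 and Slc32a1), and their summed level was 244 to 275 CPM in DMSO and 190 to 219 CPM in GSK-126. Of the exon bases of Slc32a1, 24.9% lie opposite another gene, as do 51.5% of those of Pcp2, also in the sum. The granule neuron ranges overlapped between the groups and the GABAergic ranges did not, and both sums were lower in GSK-126 in 3 of 3 pairs. The ranges of the other lists overlapped: astroglia 2130 to 6800 against 2050 to 7200 CPM (1 called higher), oligodendrocyte lineage 357 to 698 against 429 to 703 CPM (1 higher), microglia 80.5 to 145 against 94.6 to 161 CPM (0 called), granule progenitors 166 to 230 against 154 to 261 CPM (0 called), and fibroblast and vascular cells 4410 to 6260 against 5660 to 6790 CPM (2 higher). Pair by pair, the sums of the oligodendrocyte, microglial, and fibroblast and vascular lists were higher in GSK-126 in 3 of 3 pairs, that of granule progenitors in 2 and that of astroglia in 1. The part of these markers in the receptor values was not tested. Ezh2, which encodes the target of GSK-126, was at 36.5 ± 6.97 CPM in DMSO and 33.6 ± 7.82 CPM in GSK-126, and its transcript does not report the inhibition of the enzyme.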

How the data were processed

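RNA-seq of 6 CGN libraries was used, 3 DMSO and 3 GSK-126, grouped by the agent named in their labels. The authors trimmed reads (Trimmomatic 0.38), aligned them to the mouse genome with STAR 2.7.2b and deposited raw counts of reads on exons per gene for each library, with no normalization. Reads not assigned to a single gene took 58.7% to 60.7% of each table and were left out. Those on no gene took 45.31% to 46.64% and ambiguous ones 0.88% to 1.1%, the rest being unassigned for other reasons. The 55341 symbols were matched to GENCODE M21 for identifiers, positions and exon lengths. The members and gene lists were chosen with earlier results of these data known.

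Counts were tested with edgeR 4.0.16 (TMM factors, filterByExpr, quasi-likelihood test, Benjamini-Hochberg over 16729 genes) in R 4.3.3, with group as the only term and, as an alternative, with the replicate number as a block, as well as with DESeq2 1.42.0. The pairing comes from the data: deviations from the group means correlated at 0.487 to 0.634 for equal numbers and at -0.49 to 0.00638 for unequal ones, so the numbers pair the cultures. Biological replicates were separate pools of litters. With no block, p-values measure the spread between the 3 cultures of a group. With the block, they measure the spread of the 3 pair differences, after what the paired cultures share has been removed. In data simulated for this comparison (16729 genes, 200 changed by a log2 of 1), the fit with no block called 0% of the changed genes and the blocked fit 95%, with 12 unchanged genes called. The simulation gave libraries of equal number a shared effect and took 1 noise level from the blocked fit. It was thus built to favour the block and cannot show which fit suits the real libraries. Changed genes were drawn only above a minimum level, so it does not cover genes with few counts. No 2 libraries were copies, the chi-square per degree of freedom being 12.0 or more.

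Genes named besides the members were the called genes of each list (at most 5, by p), the 2 of highest mean CPM in each list, and the 5 whose log2 CPM (prior count 2) correlated best with Sstr2, also after replicate means were removed (1 gene of the last group is not reported here); neighbours were added later. Intervals on shares (Wilson) and on ratios (exact) are at 95%. Alternatives were other scaling, other filters, DESeq2, other lengths and leaving out each library or pair.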

Additional observations from a re-analysis of the deposited data

How the results depend on the processing

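The replicate block decided what was called. With no block, 0 genes passed by edgeR, 10 with no filter on low counts and 21 by DESeq2, and leaving out each library gave 0 to 0. With the replicate block, 1412 passed, 951 by DESeq2, 1460 with at least 10 counts in every library, 1611 with no filter, 1421 with total counts and 1425 with upper-quartile factors, and 1088, 833 and 1277 without pair 1, 2 and 3. The split of higher and lower calls, 561 and 851 with TMM, was 714 and 707 with total counts and 727 and 698 with upper-quartile factors, and Sstr2 (-0.87) and Sstr3 (-2.34 and -2.35) kept their direction there. Of the 6 members, 0 were called with no block and 2 with it, also with no filter, total counts or upper-quartile factors and without pair 1 or 3, but 1 without pair 2, 1 with at least 10 counts in every library, which removes Sstr3, and 1 by DESeq2, which gives Sstr3 no adjusted p. Of the pathway lists, 0 were called with no block and 11 with it, 9 by DESeq2 (without Shank1, Oprl1 and Oprm1, the last with no adjusted p, and with Cpe), 10 with at least 10 counts, 11 with no filter, 9 with total counts, 9 with upper-quartile factors and 7, 8 and 8 without pair 1, 2 and 3. Leaving out each library gave -1.02 to -0.79 for Sstr2 and -2.91 to -1.78 for Sstr3, the last without DMSO replicate 2. The median log2 fold change of the other Gi/o peptide receptors, which rests on 5 genes, ranged from -0.38 to 0.24. In the order of levels 2 steps separated all DMSO libraries, also with the longest transcript or total counts, and 1 did over all 6 libraries. The settings with the block that change the filter or the scaling were added after the data had been seen. Depth leaves Sstr1, Sstr4, Sst and Cort at 0 to 9 counts per library, where only large differences could be seen.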
